A study of Homo sapiens with 28 samples.

Results

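The 10 genes of the G1 cell-cycle switch described here are the D-type cyclins CCND1, CCND2 and CCND3, their kinase partners CDK4 and CDK6, the CDK inhibitors CDKN1A (p21), CDKN1B (p27), CDKN2B (p15) and CDKN2C (p18), and the retinoblastoma gene RB1. They were taken by gene symbol from 58278 genes counted by RNA-seq, each symbol matching 1 row, and 9 of the 10 passed the filter on low counts, CCND2 being the exception. The libraries came from HCT116 cells carrying luciferase and GFP, a human colorectal carcinoma line, grown as subcutaneous xenografts in male NOD SCID mice injected at 5 weeks of age. From day 8 the mice received by daily oral gavage, for 23 days, vehicle (Control, 3 tumors), Palbociclib at 100 mg/kg/day (5 tumors), Telaglenastat at 150 mg/kg/day (4 tumors, spelled Telaglenestat in the labels) or both drugs (Combination, 4 tumors), and the residual tumors were sequenced. A further 12 libraries came from cell lines established from such tumors, 3 per treatment, and grown without drug, so that a culture named Palbociclib was not exposed to the drug when its RNA was taken. Every library thus derives from 1 parental line in an immunodeficient host, and the labels do not tie a culture to a tumor.

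D cyclins bind and activate CDK4 and CDK6, and the active kinases phosphorylate RB1, which then releases the E2F transcription factors that drive genes of DNA replication. The INK4 proteins, CDKN2B and CDKN2C among them, bind CDK4 and CDK6 and keep the cyclin from activating them, while CDKN1A and CDKN1B of the CIP/KIP family inhibit CDK2 complexes and also associate with cyclin D complexes. CDKN1A is a textbook target of p53, which is wild type in HCT116 cells. Palbociclib inhibits the kinase activity of CDK4 and CDK6, and Telaglenastat inhibits glutaminase, which converts glutamine to glutamate.

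The genes lie on several chromosomes of GRCh38 in the GENCODE release 29 annotation. The D cyclin genes are at chr11:69641087-69654474 (CCND1, plus strand), chr12:4273772-4305350 (CCND2, plus) and chr6:41934933-42050357 (CCND3, minus). CDK4 is at chr12:57747727-57756013 and CDK6 at chr7:92604921-92836594, both on the minus strand. The inhibitors are at chr6:36676460-36687339 (CDKN1A, plus), chr12:12715058-12722371 (CDKN1B, plus), chr9:22002903-22009363 (CDKN2B, minus) and chr1:50960745-50974633 (CDKN2C, plus), and RB1 is at chr13:48303726-48599436 on the plus strand. CDK4 shares 1369 exon bases with TSPAN31 on the opposite strand and CCND1 shares 497 with LTO1. The strand setting of the counting is not given in the sources used here, so it is not known whether reads in these stretches were counted, or for which gene. The opposite genes had 86 to 225 counts (TSPAN31) and 49 to 162 counts (LTO1) in the 28 libraries, against at least 645 for CDK4 and 3319 for CCND1. CDKN1A shares 146 exon bases with DINOL, and 14.5% of the 60-base stretches of CCND2 also occur in AC008012.1, neither of which is analysed here.

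CDK6 and CDKN2B are the 2 members that were higher together with CCND1 in Combination tumors, and the bases before their start sites are printed for that reason. RefSeq promoter windows (GRCh38.p14, 250 bases before each start) matched 8 of the 10 genes, in 13 windows; CCND1 and CCND2 were not matched. The sequences run 5′ to 3′ in the direction of the gene and leave out bases that GENCODE release 29 annotates as exon. Capitals mark the GC box letters GGGCGG on either strand.
CDK6 (chr7:92836595-92836823, minus strand): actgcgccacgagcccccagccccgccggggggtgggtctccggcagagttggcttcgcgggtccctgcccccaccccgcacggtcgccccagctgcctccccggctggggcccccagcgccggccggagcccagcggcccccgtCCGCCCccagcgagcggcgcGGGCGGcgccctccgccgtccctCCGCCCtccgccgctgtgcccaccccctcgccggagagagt
CDKN2B (chr9:22009364-22009555, minus strand): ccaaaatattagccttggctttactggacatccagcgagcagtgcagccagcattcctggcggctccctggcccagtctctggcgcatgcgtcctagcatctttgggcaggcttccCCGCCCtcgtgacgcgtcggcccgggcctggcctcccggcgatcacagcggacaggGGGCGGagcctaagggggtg
The CDK6 stretch is 229 bases long and holds 3 GC boxes, and the CDKN2B stretch is 192 bases long and holds 2, while 42.6% of 35116 RefSeq promoter windows of 250 bases hold at least 1. Another listed CDK6 start has a window at chr7:92833960-92834209 that holds no GC box and is not printed. The E2F-type letters TTTCCCGC, TTTGGCGC, TTTCGCGC and TTTGCCGC, on either strand, were in none of the 13 member windows and in 2.79% of all windows, and the TATA-type letters TATAAA were also in none, against 10.7% of all. No match means only that these letters are not in these windows. The only RB1 window, chr13:48476200-48476449, lies inside the gene, so the bases before the RB1 start given above were not searched. Annotated exons filled 244 of the 250 bases of the CDKN1B window, 211 of the CDK4 window and all of some CCND3 and CDKN2C windows.

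Library totals were 6273834 to 10617936 counts in tumors and 7198540 to 13815675 in cultures. Values are CPM, a gene's counts scaled to a common library total, computed with TMM factors separately within the tumors and within the cultures unless stated. The epithelial genes EPCAM, KRT8 and KRT18 were counted in every library (at least 2100 counts each). Of the intestinal markers, CDX2 had 20 to 79 counts in the tumors, while VIL1 and CDH17 were at 0 in 9 and 7 of 16 tumors. The dependence of the counts on GC content differed by treatment. Slopes per SD of transcript GC content were taken of log2 CPM as deviations from each gene's mean over the tumors, or over the cultures. Their 0 is thus the average of the tumors or of the cultures, not an absence of GC dependence. The slope was 0.253 ± 0.00639 (SD, n = 3) in Control and 0.284 ± 0.106 (n = 5) in Palbociclib tumors. It was -0.337 ± 0.0355 (n = 4) in Telaglenastat and -0.208 ± 0.055 (n = 4) in Combination tumors. All 8 tumors given Telaglenastat thus lay below all 8 others. This dependence and the drug cannot be told apart by design, so the fold changes are also given after removing, within each library, the trend of counts on GC content and length. Of the cultures, Telaglenastat replicate 2 stood apart with a slope of 0.418 against -0.132 to 0.178 in the other 11, and no pair of the 3 Telaglenastat cultures was as alike as the replicates of the other groups (chi-square per gene of at least 36.7, against lowest values of 4.02 to 6.03). Palbociclib cultures had slopes of -0.132 to -0.103, below the Control cultures at -0.0692 to 0.178. Combination cultures had -0.130 to -0.0641, so GC dependence was not alike between the culture groups either. The summed CPM of 14 stroma markers was 187 to 235 in Control, 148 to 239 in Palbociclib, 58.2 to 70.3 in Telaglenastat, 111 to 164 in Combination tumors and 4.16 to 14.4 in cultures; LUM and CDH5 were at 0 in all 16 tumors. The host's stroma is mouse and the counts are of human genes, so this sum is not a measure of the number of stromal cells. Its part in the results was not tested, and in tumors fewer cells of a type and less RNA per cell cannot be told apart.

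Per kilobase of exon, CCND1 was the most abundant of the 10 transcripts in Control tumors, at 107 ± 1.54 CPM per kb (SD, n = 3). CDK4 (52.9 ± 3.25) and CDKN1A (50.5 ± 2.54) followed, with values that overlapped. CDKN1B (17.4 ± 1.91) and RB1 (15.5 ± 0.361) were next, with each CDKN1B value above each RB1 value. The length is that of all exons of a gene together, 6452 bases for RB1 and 2811 for CDKN1B. Their longest transcripts have 4793 and 2657 bases, and the order of these 2 genes depends on which length is used. CCND3 was lower, at 4.84 ± 0.0514 CPM per kb. CDKN2B (2.70 ± 0.720), CDK6 (1.95 ± 1.13) and CDKN2C (1.95 ± 0.182) overlapped in their values, and CCND2 was at 0.0535 ± 0.0214. Most of the D cyclin and CDK4/6 transcript in these tumors was thus CCND1 and CDK4.

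**Figure D1:**
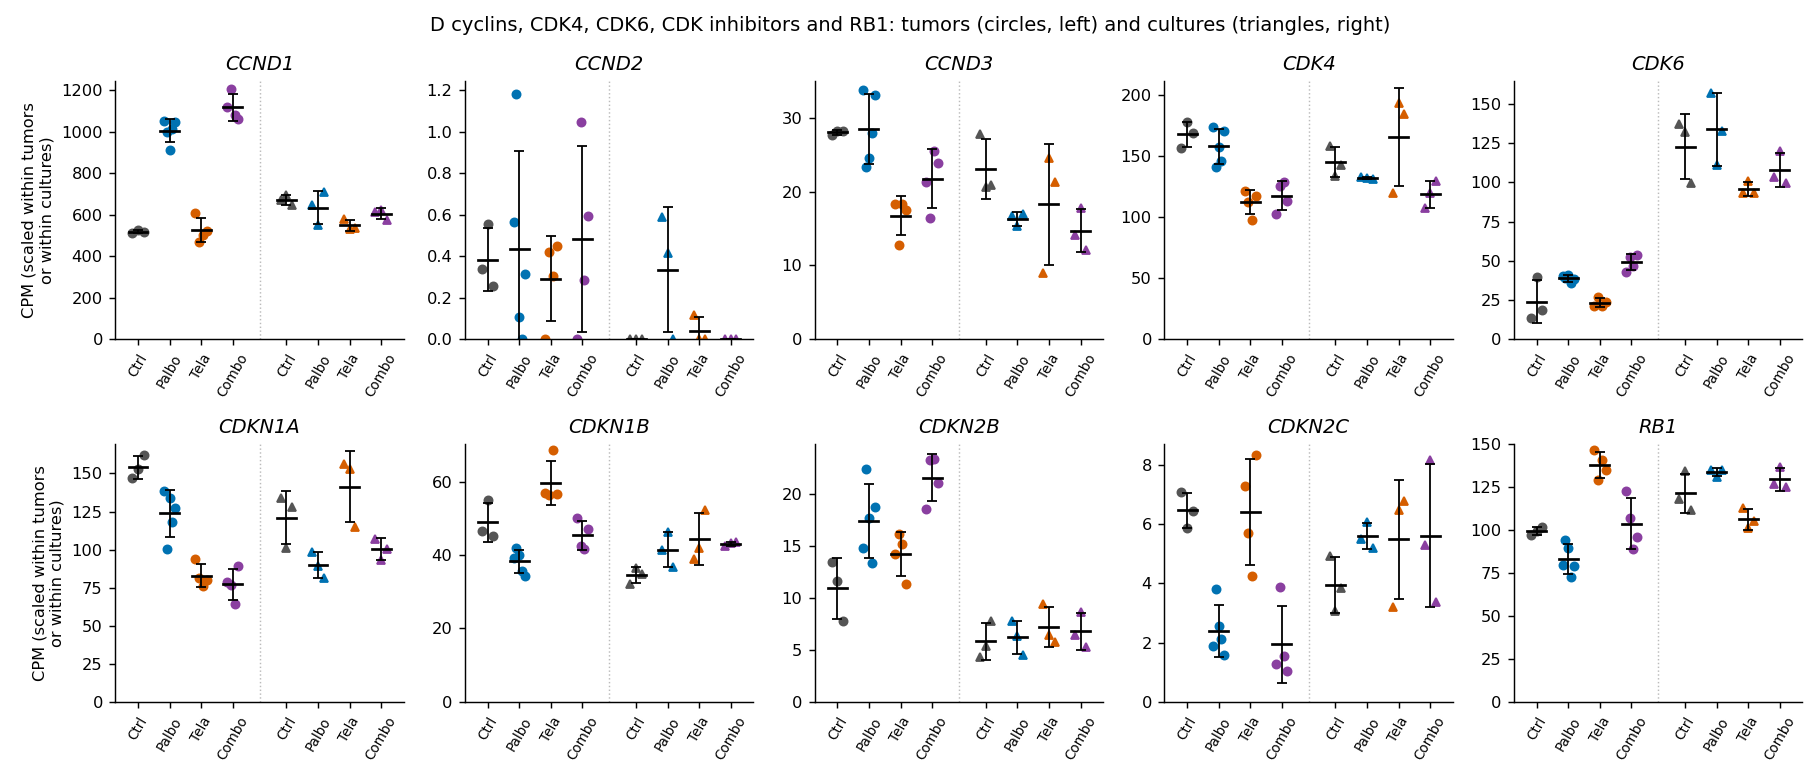
CPM of each gene in every library, with tumors as circles on the left and cultures as triangles on the right of each panel; bars are the group mean ± SD (n = 3 to 5), and each panel has its own axis from 0. CCND1 in Palbociclib and Combination tumors lies above all Control tumors, CDK6 in Control tumor 2 lies apart from the other 2 Control tumors, and CDK6 is higher in cultures than in tumors (the 2 settings are scaled separately).

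With Palbociclib alone, CCND1 and the INK4 inhibitor gene CDKN2B were higher than in Control tumors, while the INK4 gene CDKN2C and the CIP/KIP gene CDKN1B were lower. CCND3 and CDK4 did not pass the test. In all, 2 of the 9 tested members were called higher and 2 lower, where 2.55% and 3.60% of 14848 genes tested were called in those directions (edgeR quasi-likelihood test, adjusted p under 0.05). After the GC and length correction 6 members were called, 3 in each direction, against a background of 7.72% of genes in either direction, CDK6 and CDKN1A being the added ones.

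CCND1, the D cyclin with most transcript, measured 511, 526 and 518 CPM in the 3 Control tumors. It measured 1054, 997, 914, 1012 and 1046 CPM in the 5 Palbociclib tumors and 1121, 1208, 1079 and 1063 CPM in the 4 Combination tumors. All 9 tumors given Palbociclib were thus above all 7 others, since Telaglenastat tumors had 606, 469, 504 and 520.1 CPM. The rise was 1.94-fold with Palbociclib (log2 fold change 0.95, SE 0.08, edgeR adjusted p = 1.64e-06) and 2.16-fold with the Combination (log2 fold change 1.11, SE 0.08, edgeR adjusted p = 1.61e-08). With Telaglenastat alone CCND1 did not pass the test (log2 fold change 0.02, SE 0.08, edgeR adjusted p = 0.864), with a 95% interval of -0.14 to 0.18. The correction left both rises in place (0.95 and 1.20 on the log2 scale). Combination tumors also all lay above the Palbociclib tumors, a difference that did not pass the test as counted (log2 fold change 0.15, edgeR adjusted p = 0.0757) and passed it once corrected (0.25, adjusted p = 0.0113).

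CCND3, the second D cyclin by level, measured 27.7, 28.2 and 28.3 CPM in Control and 33.8, 23.4, 24.6, 28.02 and 33.1 CPM in Palbociclib tumors, and the groups overlapped (log2 fold change 0.03, SE 0.15, edgeR adjusted p = 0.962). It was lower in all 4 Telaglenastat tumors, at 18.4, 12.8, 18.4 and 17.6 CPM (log2 fold change -0.74, SE 0.16, edgeR adjusted p = 7.60e-04). In Combination tumors it measured 21.3, 16.4, 25.6 and 23.95 CPM, below every Control tumor but short of the threshold (log2 fold change -0.36, SE 0.16, edgeR adjusted p = 0.0708), which was passed without Combination tumor 3 (-0.45, adjusted p = 0.0406). CCND3 has a GC content of 56.2% in its longest transcript, and after the correction the Telaglenastat difference was 0.01 (adjusted p = 0.988) and that of Combination 0.28, so the direction did not hold. CCND2 had 3, 5 and 2 counts in Control, 6, 9, 1, 0 and 2 in Palbociclib, 0, 3, 2 and 3 in Telaglenastat and 0, 7, 2 and 4 in Combination tumors, and 5, 3 and 0 in Palbociclib and 1, 0 and 0 in Telaglenastat cultures. In the Control and Combination cultures it had no count, which allows up to 3 counts per library, and no difference in CCND2 was detectable at this depth.

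CDK4, the main kinase partner of the D cyclins here, measured 157, 178 and 169 CPM in Control tumors and 174, 141, 158, 146 and 171 CPM in Palbociclib tumors, which overlapped (log2 fold change -0.09, SE 0.09, edgeR adjusted p = 0.696). It was below every Control tumor in the Telaglenastat tumors, at 121, 113, 97.9 and 117 CPM, and in the Combination tumors, at 103, 126, 129 and 113 CPM. Both differences were called as counted (log2 fold change -0.58 and -0.51, SE 0.09 each, edgeR adjusted p = 3.78e-05 and 1.62e-04). Neither was called after correction, with values of -0.11 (adjusted p = 0.393) and -0.16 (0.141).

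CDK6 is the paralog of CDK4. It measured 13.6, 39.6 and 18.6 CPM in Control tumors, where replicate 2 was more than 2 times as high as the other 2. Palbociclib tumors held 39.9, 39.04, 40.9, 35.5 and 38.2 CPM, Telaglenastat tumors 20.97, 27.03, 21.1 and 23.7 CPM and Combination tumors 42.7, 52.4, 46.7 and 53.9 CPM. Combination tumors were above every tumor of the other 3 groups, and CDK6 was 2.04-fold higher there than in Control (log2 fold change 1.03, SE 0.22, edgeR adjusted p = 8.15e-04; corrected 0.85, adjusted p = 0.00875). Leaving out 1 tumor at a time gave 0.74 to 1.61, the highest without Control tumor 2. With Palbociclib the difference was of uncertain call: 0.69 on the log2 scale (SE 0.21, edgeR adjusted p = 0.0591), 0.72 after correction (adjusted p = 0.0471), and 1.27 (adjusted p = 8.69e-05) without Control tumor 2. Against Telaglenastat tumors, a comparison that does not use the Control tumors, Combination tumors had 2.11-fold more CDK6 (log2 fold change 1.08, SE 0.21, edgeR adjusted p = 0.00102). Against Palbociclib tumors the CDK6 difference did not pass the test as counted (log2 fold change 0.34, SE 0.19, edgeR adjusted p = 0.144) or corrected (0.12, adjusted p = 0.746). Telaglenastat against Control gave -0.05 with all tumors and 0.53 (adjusted p = 0.00747) without Control tumor 2, so the direction rested on that library.

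**Figure D2:**
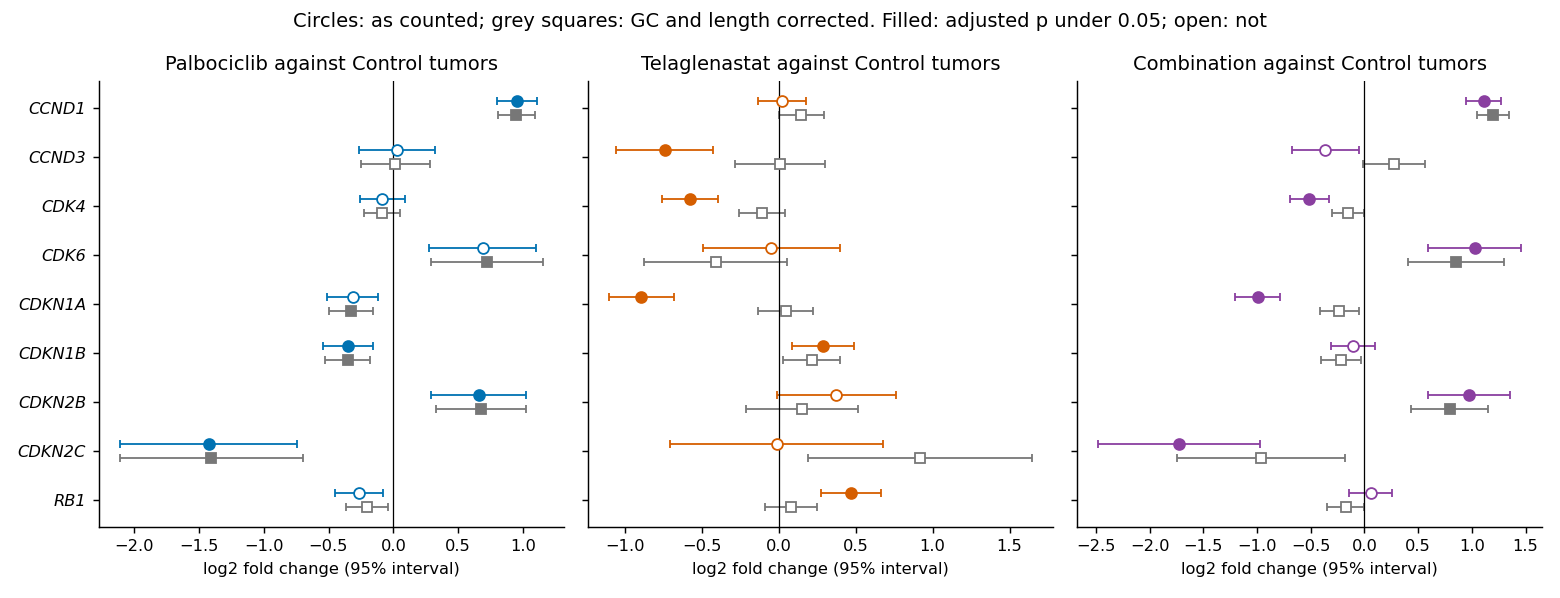
Log2 fold change of the 9 tested genes against Control tumors for each treatment, with 95% intervals; colored circles are values as counted and grey squares values after the GC and length correction, filled where the adjusted p was under 0.05. CCND1, CDK6 and CDKN2B stay to the right of 0 in Combination tumors with both, whereas the 5 filled circles of Telaglenastat have no filled square.

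Of the INK4 inhibitor genes, CDKN2B was higher and CDKN2C lower with Palbociclib, while CDKN2A (0.12) and CDKN2D (-0.44) did not pass the test. CDKN2B, whose protein p15 inhibits CDK4 and CDK6, measured 13.5, 11.6 and 7.75 CPM in Control, 14.8, 22.5, 17.7, 13.3 and 18.8 CPM in Palbociclib, 14.3, 16.2, 15.2 and 11.3 CPM in Telaglenastat and 18.6, 23.3, 23.4 and 21.1 CPM in Combination tumors. Palbociclib tumors overlapped the Control tumors by 1 library, and all Combination tumors were above them. CDKN2B was 1.97-fold higher with the Combination (log2 fold change 0.97, SE 0.19, edgeR adjusted p = 3.94e-04; corrected 0.80, adjusted p = 0.0028) and 1.58-fold higher with Palbociclib (log2 fold change 0.66, SE 0.19, edgeR adjusted p = 0.0393; corrected 0.68, adjusted p = 0.0195). The second call did not survive leaving out Control tumor 2 or 3 (adjusted p = 0.0995 and 0.231) or Palbociclib tumor 2, 3 or 5 (0.0692, 0.0658 and 0.0755).

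CDKN2C, which encodes p18, was counted few times: 63, 53 and 50 counts in Control tumors and 48, 41, 28 and 56 in Telaglenastat tumors, against 20, 29, 24, 19 and 10 in Palbociclib and 8, 26, 11 and 7 in Combination tumors. In CPM, no tumor given Palbociclib reached the lowest tumor without it (at most 3.88 against at least 4.25). CDKN2C fell by 1.43 on the log2 scale with Palbociclib (SE 0.35, edgeR adjusted p = 0.0146; corrected -1.40) and by 1.73 with the Combination (SE 0.38, adjusted p = 0.00105). The Combination value was -0.96 after correction, short of the threshold (adjusted p = 0.0832). The Palbociclib call was lost without Control tumor 1 (adjusted p = 0.0718) or 3 (0.051). With Telaglenastat CDKN2C did not pass the test as counted (log2 fold change -0.01, SE 0.35, edgeR adjusted p = 0.976) or corrected (0.92, SE 0.37, adjusted p = 0.108). Combination and Telaglenastat tumors both had GC slopes below those of all other tumors. Between these 2 groups, CDKN2C was lower in Combination tumors both as counted (-1.71, edgeR adjusted p = 0.00262) and corrected (-1.88, adjusted p = 0.00175).

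Of the CIP/KIP genes, CDKN1A measured 147, 153 and 162 CPM in Control tumors and was below all of them in each treated group, at 139, 100.2, 134, 118 and 128 CPM with Palbociclib, 93.6, 81.7, 76.2 and 80.1 CPM with Telaglenastat and 78.8, 77.04, 64.3 and 88.96 CPM with the Combination. The fall was called with Telaglenastat (log2 fold change -0.89, SE 0.11, edgeR adjusted p = 1.15e-06) and with the Combination (log2 fold change -0.995, SE 0.11, edgeR adjusted p = 5.32e-07), and not with Palbociclib (log2 fold change -0.31, SE 0.10, edgeR adjusted p = 0.0706). The correction changed this order. CDKN1A, with 58.1% GC, then passed the test with Palbociclib (-0.33, adjusted p = 0.0199), did not pass it with the Combination (-0.23, adjusted p = 0.0673), and was at 0.04 with Telaglenastat (adjusted p = 0.819). As counted, the Palbociclib difference passed the test without Palbociclib tumor 1 (-0.36, adjusted p = 0.0435).

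CDKN1B measured 46.5, 55.01 and 45.1 CPM in Control and 39.3, 41.8, 40.1, 35.8 and 34.4 CPM in Palbociclib tumors, the latter all lower (log2 fold change -0.35, SE 0.10, edgeR adjusted p = 0.0363; corrected -0.35, adjusted p = 0.0173). That call was lost without Control tumor 1 or 2 (adjusted p = 0.0703 and 0.253) or Palbociclib tumor 4 or 5 (0.0826 and 0.0825). Among 9 alternative settings other than a library left out, it was made in 4. Telaglenastat tumors were all above Control, at 56.8, 56.3, 68.5 and 56.6 CPM (log2 fold change 0.28, SE 0.10, edgeR adjusted p = 0.0266), a call that was lost after correction (0.21, adjusted p = 0.145) and without Control tumor 1 or 3 or Telaglenastat tumor 3 (adjusted p = 0.101, 0.124 and 0.103). Combination tumors, at 50.2, 42.5, 41.8 and 47.01 CPM, overlapped Control and were all below the Telaglenastat tumors (log2 fold change -0.39, SE 0.10, edgeR adjusted p = 0.00713; corrected -0.43).

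RB1, the substrate of the cyclin D kinases, measured 97.5, 99.7 and 102 CPM in Control tumors. It was lower in each Palbociclib tumor, at 79.7, 93.99, 89.8, 72.8 and 78.9 CPM, without passing the test (log2 fold change -0.27, SE 0.09, edgeR adjusted p = 0.114), except when Palbociclib tumor 2 was left out (-0.31, adjusted p = 0.0445). It was higher in each Telaglenastat tumor, at 147, 129, 141 and 135 CPM (log2 fold change 0.47, SE 0.10, edgeR adjusted p = 6.38e-04). Combination tumors, at 123, 107, 88.8 and 95.95 CPM, overlapped Control (log2 fold change 0.06, SE 0.10, edgeR adjusted p = 0.684) and lay below every Telaglenastat tumor (log2 fold change -0.41, SE 0.09, edgeR adjusted p = 0.00373; corrected -0.25, adjusted p = 0.038). RB1 has the lowest GC content of the 10 genes, 37.3%, and after correction its Telaglenastat value was 0.08 (adjusted p = 0.63).

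Counted over the members, Telaglenastat against Control tumors gave 2 of 9 higher and 3 lower, where 22.6% and 28.5% of all genes tested were called in those directions. None was called after correction (edgeR, background 14.7%), with 2 of 9 at an unadjusted p under 0.05. DESeq2 on the uncorrected counts called 5, for which no background is given. Combination against Control gave 3 higher and 3 lower (background 17.6% and 26.9%), and 3 after correction, CCND1, CDK6 and CDKN2B, all higher (background 26.3%). Combination against Palbociclib gave 2 higher, CDKN1B and RB1, and 3 lower, CCND3, CDK4 and CDKN1A (background 20.1% and 27.5%), of which none was called after correction, CCND1 alone being called then (background 15.3%). As counted, the CDKN1B call was lost on leaving out any one of Palbociclib 4, Palbociclib 5, Combination 1 and Combination 4 (adjusted p = 0.0799, 0.0873, 0.12 and 0.08), and the CCND3 call on leaving out any one of Palbociclib 1, Palbociclib 5, Combination 1 and Combination 2 (0.0841, 0.0721, 0.0652 and 0.128). Combination against Telaglenastat gave 3 higher, CCND1, CDK6 and CDKN2B, and 3 lower, CDKN1B, CDKN2C and RB1 (background 8.93% and 9.89%). The CDKN2B call there was lost on leaving out any one of Telaglenastat 4, Combination 2 and Combination 3 (adjusted p = 0.0765, 0.0538 and 0.0587). After correction 7 were called in that comparison, those 6 and CDKN1A, lower (background 15.7%). Leaving out Palbociclib tumor 2 added CDKN2B to the calls of Combination against Palbociclib (0.43, adjusted p = 0.0321), and leaving out Combination tumor 2 added CCND3 to those of Combination against Telaglenastat (0.50, adjusted p = 0.0309). Comparisons against Control share the same 3 Control tumors.

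**Figure D3:**
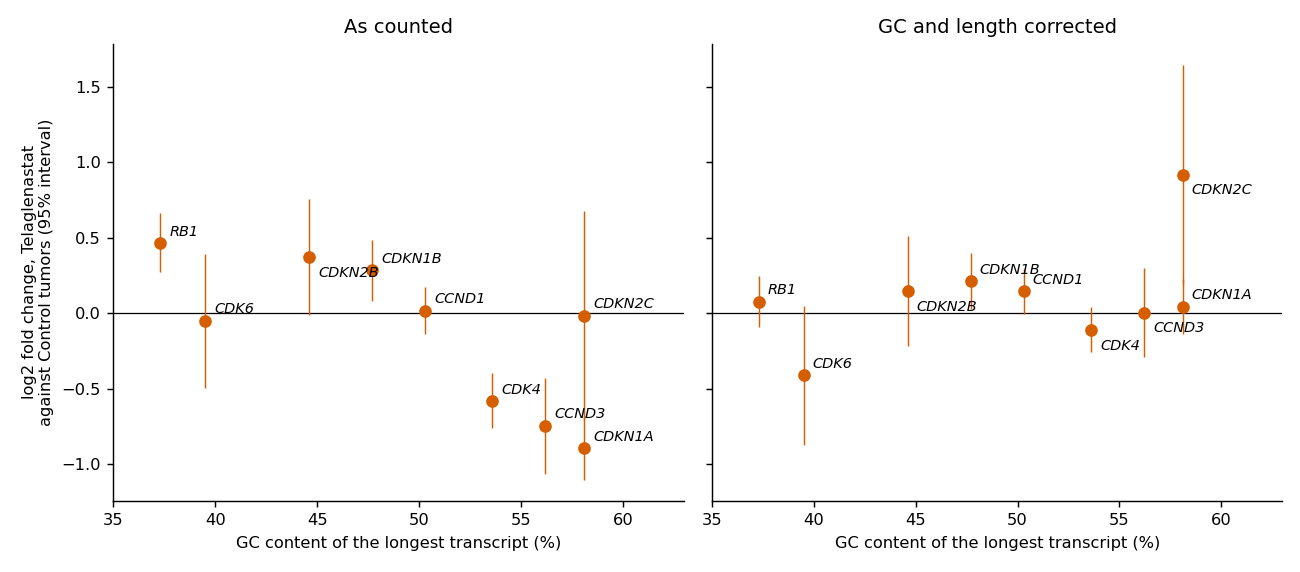
Log2 fold change of Telaglenastat against Control tumors for the 9 tested genes plotted against the GC content of each gene's longest transcript, as counted (left) and after correction (right); bars are 95% intervals. As counted, RB1 at 37.3% GC is at the top and CDKN1A at 58.1% at the bottom. After correction both are within 0.1 of 0, and CDKN2C, with few counts, is at 0.92 with the widest interval.

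Across the 9 tested members, the log2 fold change of Telaglenastat against Control had a Pearson correlation of -0.731 and a Spearman correlation of -0.72 with GC content, and 0.454 and 0.142 after correction. For the Combination these were -0.701 and -0.762 before, and -0.422 and -0.494 after correction. For Palbociclib they were -0.459 and -0.418, and -0.487 and -0.418. The points are genes of the same libraries, not replicates.

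The balance between paralogs was expressed as a share of transcripts per exon length. The level of each share depends on this length, which for CCND3 is 5802 bases of exon against 2394 in its longest transcript. CCND1 made up 95.6% ± 0.0170 (SD, n = 3) of D cyclin transcripts in Control tumors and CCND3 4.31% ± 0.0354 (SD, n = 3). CCND3 had 4.32%, 4.28% and 4.35% in the Control tumors, 2.60%, 1.92%, 2.19%, 2.25% and 2.57% in Palbociclib, 2.46%, 2.22%, 2.94% and 2.73% in Telaglenastat and 1.56%, 1.12%, 1.93% and 1.84% in Combination tumors. Every treated tumor had a smaller CCND3 share than every Control tumor. The differences were -2.01, -1.72 and -2.70 percentage points (two-sided exact permutation test, p = 0.0357, 0.0571 and 0.0571; adjusted p = 0.14 each), and the corrected ones -1.54, -0.276 and -1.51.

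CDK4 made up 96.5% ± 1.74 (SD, n = 3) of CDK4 plus CDK6 in Control tumors, with 97.8%, 94.5% and 97.2% in the 3 libraries. It made up 94.01% ± 0.498 (SD, n = 5) in Palbociclib and 94.9% ± 0.645 (SD, n = 4) in Telaglenastat tumors. In Combination tumors it was 90.3%, 90.3%, 91.4% and 89.04%, below every other tumor. The differences from Control were -2.52, -1.62 and -6.27 points (exact permutation test, p = 0.0357, 0.229 and 0.0571; adjusted p = 0.14, 0.282 and 0.14), and -3.45, 0.759 and -4.46 after correction. Control cultures had 81.7%, 79.7% and 84.8%, 14.5 points below Control tumors (p = 0.1 by exact permutation, 0.14 when adjusted), and all 12 cultures lay between 76.5% and 88.4%. The p-values were adjusted over 21 comparisons of 3 shares. The smallest p these designs allow is 0.0357 for 3 against 5 libraries, 0.0571 for 3 against 4 and 0.1 for 3 against 3, so no adjusted value could reach 0.05.

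**Figure D4:**
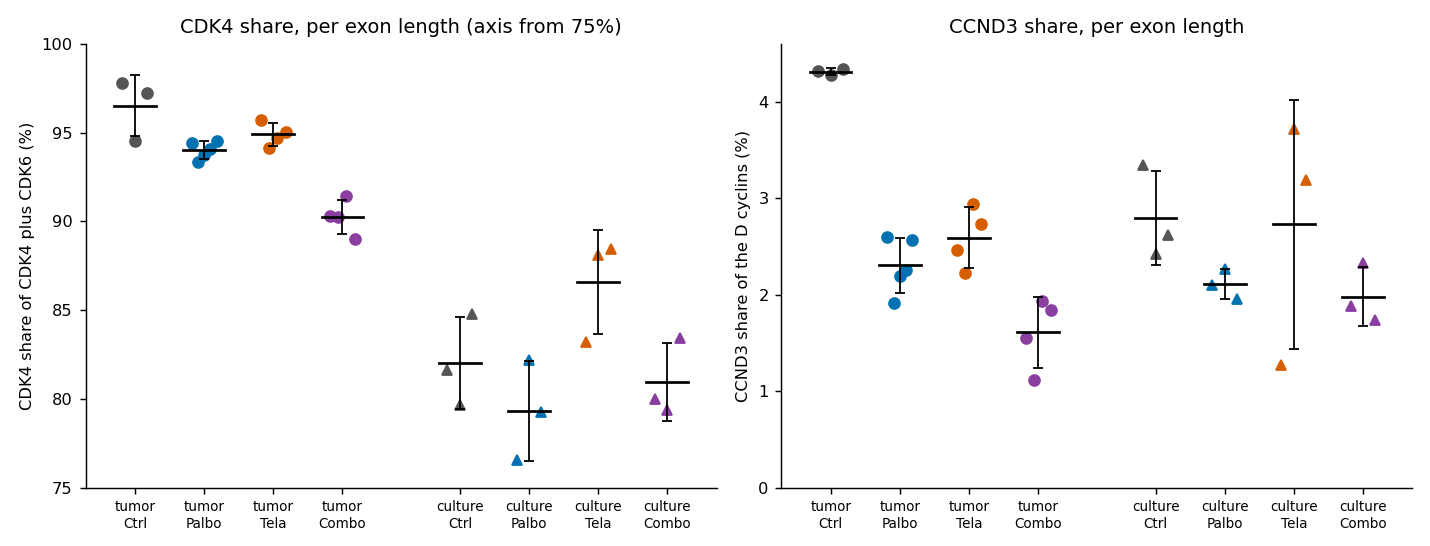
Share of CDK4 in CDK4 plus CDK6 (left, axis from 75%) and of CCND3 in the 3 D cyclins (right, axis from 0), both from counts per exon length, in every tumor (circles) and culture (triangles), with group mean ± SD (n = 3 to 5). Combination tumors have the lowest CDK4 share of the tumors, 89.0% to 91.4%, and the cultures lie lower still; the CCND3 share of the 3 Control tumors, 4.28% to 4.35%, is above that of every other library.

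In the cultures grown without drug, no member was called in any of the 5 comparisons by the main edgeR fit. The same held after correction and with DESeq2. With no low-count filter, or with 1 fit of all 28 libraries, edgeR called 2 members lower in Combination than in Telaglenastat cultures. These were CDK4 and CDKN1A (adjusted p down to 0.0259 and 0.0249), and the share of all genes called in those fits is not given. Of the 13985 genes tested in the main fit, 0% were called in Palbociclib against Control, Telaglenastat against Control, Combination against Palbociclib and Combination against Telaglenastat, and 0.00715% (1 gene) in Combination against Control. At an unadjusted p under 0.05 edgeR gave 1, 3, 0, 3 and 2 of 9 members in these comparisons, and DESeq2 1, 3, 1, 3 and 2 of 10. Over all genes DESeq2 called 0, 13, 3, 99 and 2 at an adjusted p under 0.05, in the same order. The share of all genes at an unadjusted p under 0.05 is not given, here or for the tumors, so counts at that level have no background. CCND1 had 669.6, 695 and 647 CPM in Control, 647, 548 and 709 in Palbociclib, 578, 531 and 537 in Telaglenastat and 614, 623 and 574 in Combination cultures. Its Palbociclib difference was -0.08 on the log2 scale with a 95% interval of -0.29 to 0.13, and its Combination difference -0.15 (-0.36 to 0.06), intervals that do not hold the tumor values of 0.95 and 1.11.

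CDK6 had 137, 132 and 99.4 CPM in Control, 157, 111 and 133 in Palbociclib, 93.3, 101 and 93.3 in Telaglenastat and 104, 119.8 and 99.4 in Combination cultures, and the range of each group overlapped that of Control. CDKN2C, the most lowered member in tumors given Palbociclib, was at 4.93, 3.08 and 3.83 CPM in Control and 5.51, 6.07 and 5.20 CPM in Palbociclib cultures, which were all higher without passing the test (log2 fold change 0.50, 95% interval -0.22 to 1.22, edgeR adjusted p = 0.795). CDKN1A had 134, 101 and 128 CPM in Control and 98.6, 89.1 and 81.4 CPM in Palbociclib cultures (-0.43, 95% interval -0.71 to -0.15, adjusted p = 0.795). After correction the Palbociclib differences were 0.83 for CDKN2C and -0.11 for CDKN1A. CDKN1B was above all Control cultures in each of the other 9, at 36.7 to 52.4 CPM against 32.2, 36.6 and 34.9, with adjusted p of 0.795, 0.733 and 0.681 for Palbociclib, Telaglenastat and Combination. CCND3 and CDK4 in Telaglenastat cultures ranged from 8.97 to 24.7 and from 120 to 193 CPM, the widest spread of any culture group; without Telaglenastat culture 1, CDK4 was called lower in Combination than in Telaglenastat cultures (-0.67, adjusted p = 0.0136).

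Control cultures were compared with Control tumors on a scale common to all 28 libraries. CDK6 had 142, 137 and 103 CPM in the cultures and 12.7, 37.3 and 17.3 CPM in the tumors, a 5.66-fold difference (log2 fold change 2.50, SE 0.22, edgeR adjusted p = 1.03e-09; corrected 2.34; 3.09 on the log2 scale without Control tumor 2). CCND1 was also higher, at 691, 722 and 673 CPM against 476, 495 and 483 (log2 fold change 0.52, SE 0.09, edgeR adjusted p = 5.47e-05). RB1 was higher as counted (0.43, adjusted p = 0.00186) and not called after correction (0.13). CDKN2B, at 4.45, 5.63 and 8.12 against 12.6, 10.9 and 7.22 CPM, was lower (log2 fold change -0.76, SE 0.26, edgeR adjusted p = 0.0186), as was CDKN1B (-0.35, adjusted p = 0.0247). Both calls fell without Control culture 1 (adjusted p = 0.111 and 0.103) or Control tumor 2 (0.0551 and 0.157), and that of CDKN2B also without Control culture 2 (0.0675) or Control tumor 1 (0.105). In all, 3 of 9 members were higher and 2 lower, where 22.8% and 23.1% of 15466 genes were. After correction 5 were called (background 40.5%), CDKN1A (0.36, adjusted p = 0.0259, against -0.20 as counted) taking the place of RB1. Stroma markers, summed above, were lower in cultures for 7 of 8 tested and epithelial markers for 6 of 9 (3 after correction), while 14 of 18 E2F targets were higher (17 after correction); their part in the members' values was not tested.

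Whether a treatment group differed from Control alike in the tumors and in the cultures grown without drug was tested as the difference of the effects. For Palbociclib, 1 of 9 members was called, CCND1, whose effect in tumors exceeded that in cultures by 1.02 on the log2 scale (SE 0.13, edgeR adjusted p = 1.67e-04; corrected 0.96); 0.356% of 15466 genes were called in that direction and 1.03% in the other. For the Combination the difference was 1.36 for CCND1 (adjusted p = 7.32e-07) and 1.31 for CDK6 (adjusted p = 0.0157), both called after correction too, and -2.15 for CDKN2C (adjusted p = 0.0327; corrected -1.77, 0.0847), with a background of 2.11% higher and 0.795% lower. The CDK6 call was lost without Control culture 2, Combination culture 3 or Control tumor 3 (adjusted p = 0.0509, 0.0664 and 0.0578), and without Control tumor 2 the difference was 1.90 (adjusted p = 1.16e-05). The CDKN2C call was lost on leaving out any one of culture Control 2, culture Control 3, culture Combination 1, culture Combination 2, tumor Control 1, tumor Control 2, tumor Control 3, tumor Combination 1, tumor Combination 3 and tumor Combination 4 (adjusted p = 0.0502 to 0.106). For Telaglenastat, CCND1 (0.40, adjusted p = 0.0176) and RB1 (0.75, 6.25e-04) were higher and CDK4 (-0.68, 0.00405) and CDKN1A (-1.03, 2.46e-04) lower, against a background of 15.6% and 18.5%. After correction CCND1 alone remained of these (0.44, adjusted p = 0.0497), and it was lost without Control culture 2 as counted (adjusted p = 0.0513). The corrected backgrounds were 1.14%, 2.50% and 4.80% for Palbociclib, Combination and Telaglenastat, and the corrected Palbociclib differences of CDKN1B (-0.57, adjusted p = 0.0439) and CDKN2C (-2.23, 0.0314) were called as well. Some differences were called as counted only without 1 tumor: CDK6 for Palbociclib (1.15, adjusted p = 0.00694) and Telaglenastat (0.99, adjusted p = 0.00187) without Control tumor 2, CDKN2C for Palbociclib without Palbociclib tumor 2 (-2.15, adjusted p = 0.0264), and CDKN1A for the Combination without Combination tumor 4 (-0.69, adjusted p = 0.0419).

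Genes next to the members in the pathway were taken from lists of 31 G1 regulators, 18 E2F targets and 19 p53 targets. With Palbociclib 12 of the 18 E2F targets were called lower and the other 6 were not called, where 3.60% of all genes were called lower, with a median log2 fold change of -0.56 against 0.000672 over all genes tested, and 16 were lower after correction. RRM2 (-1.08, adjusted p = 1.50e-05) and RRM1 (-0.78, adjusted p = 1.32e-04), subunits of ribonucleotide reductase, TYMS (-0.81, adjusted p = 1.60e-05), the thymidylate synthase, and PCNA (-0.73, adjusted p = 1.08e-05), the sliding clamp of replication, were the most lowered. With the Combination 16 of 18 were lower, against 26.9% of all genes (median -0.82; 17 lower after correction), among them TK1 (-2.24), CDT1 (-1.996), MCM5 (-1.93) and MCM7 (-1.63), whose corrected values were -1.18, -0.80, -1.20 and -0.88. With Telaglenastat 5 were higher and 9 lower of 18 (background 22.6% and 28.5%), and 2 were lower after correction.

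Of the G1 regulators, 8 of 31 were lower with Palbociclib as counted and after correction (background 3.60% lower as counted), among them cyclin E2 (CCNE2, -1.51, adjusted p = 3.32e-05), cyclin A2 (CCNA2, -1.01, adjusted p = 7.98e-06) and the atypical E2F genes E2F8 (-1.31, adjusted p = 1.16e-04) and E2F7 (-0.98, adjusted p = 9.01e-05). After correction 1 was higher, CDC37 (0.26), named after its values were seen. With the Combination 15 were lower and 7 higher, against 26.9% and 17.6% of all genes (12 and 8 after correction, against 26.3% in either direction). The activator genes E2F1 (-1.71, corrected -0.65) and E2F2 (-1.53, corrected -0.78) were lower as were E2F8 (-1.36) and E2F7 (-1.15), while E2F5 (0.61), the CDK-activating kinase CDK7 (0.58), the RB1 relative RBL2 (0.57) and the ubiquitin ligase subunit FBXW7 (0.53) were higher; E2F5 was not called after correction (0.39). With Telaglenastat 10 were higher and 9 lower, where 22.6% and 28.5% of all genes were, and 2 and 1 after correction, where 14.7% were in either direction.

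The p53 targets other than CDKN1A gave no call with Palbociclib among 18 tested of 19, by edgeR as counted or corrected, or by DESeq2 (median -0.02), and 2 had an unadjusted edgeR p under 0.05. With the Combination 3 were higher and 9 lower of 18, where 17.6% and 26.9% of all genes were, and 1 and 3 after correction (background 26.3%). The lower ones included FDXR (-1.87), PHLDA3 (-1.50), the apoptosis gene BBC3 (-1.47) and PLK3 (-1.35), of which FDXR alone was called after correction (-0.85). The higher ones were ZMAT3 (0.74), the death receptor FAS (0.40) and CCNG1 (0.22), of which ZMAT3 was called after correction (0.57). With Telaglenastat 5 were higher and 9 lower (background 22.6% and 28.5%), and 0 and 1 after correction (14.7%).

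The summed CPM of the epithelial markers was 2989 to 3548 in Control, 3254 to 4534 in Palbociclib, 1587 to 1816 in Telaglenastat and 2414 to 2644 in Combination tumors, and its part in the members' values was not tested. Of 9 epithelial markers tested, 1 was higher with Palbociclib, KRT18 (0.58), where 2.55% of all genes were. With Telaglenastat 1 was higher and 6 lower, with a median log2 fold change of -1.21, and 4 were lower after correction. Of all genes, 22.6% were higher and 28.5% lower with Telaglenastat (14.7% in either direction after correction). With the Combination these shares were 17.6% and 26.9% (26.3% after correction). With the Combination EPCAM (0.32) and CDH1 (0.25) were higher and KRT19 (-1.37), CLDN4 (-1.20), KRT8 (-0.67) and CLDN7 (-0.30) lower; after correction 4 were higher and 2 lower, the median of the list going from -0.29 to 0.24 and CLDN7 to 0.56. Of 7 stroma markers tested, none was called with Palbociclib by edgeR or DESeq2, and 2 had an unadjusted edgeR p under 0.05. CD68 (-1.58) and COL1A1 (-0.95) were lower with the Combination; COL1A1 was at 0.11 after correction. With Telaglenastat 6 of 7 stroma markers were lower, and 3 after correction.

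The 3 genes whose log2 CPM was most like each member's across the 28 libraries, by Pearson correlation among 15466 genes, are given as a description, since the libraries share treatments, setting and GC dependence. They were CCND1 with F3 (0.90), NPC2 (0.89) and MCC (0.88); the tissue factor gene F3 led this list. They were CDK6 with ADGRF1 (0.96), CRIM1 (0.94) and GDA (0.94), for which tumors and cultures form separate groups of points. The likeness was CDKN2B with PERP (0.92), IDS (0.92) and LGALS3 (0.91), and CDKN2C with RIBC2 (0.84), CYB5RL (0.82) and PEG10 (0.80). Others were CDK4 with PFN1 (0.94), MRPS34 (0.93) and BANF1 (0.93), and RB1 with EML4 (0.96), MARCH7 (0.96) and VPS35 (0.96). The remaining members gave CCND3 with POLG (0.85), WWC1 (0.83) and RASSF1 (0.83), CDKN1A with DHPS (0.90), LONP1 (0.89) and SHMT2 (0.89), and CDKN1B with H3F3A (0.82), DKK1 (0.81) and DDX50 (0.81).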

How the data were processed

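RNA-seq was done on 16 tumors and 12 cultures. Per the study's methods and the submitters' processing notes, the authors made strand-marked poly(A) libraries, sequenced 60-base single-end reads (CASAVA 1.8), aligned them to hg38 with STAR and deposited whole-number counts per gene without normalization; the annotation release and the strand setting of the counting are not given in the sources used here. Groups and replicate numbers came from the labels. The study's methods describe the cultures of a treatment as independent lines; no label names the animal of a tumor, so p-values measure the spread between these samples.

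Tumors and cultures were fitted apart as group means with edgeR 4.0.16 in R 4.3.3 (filterByExpr with a minimum count of 10, TMM, glmQLFTest, Benjamini-Hochberg, adjusted p under 0.05), on 14848 and 13985 genes. Culture against tumor and differences of effects used 1 fit of all 28 libraries (15466 genes). The code was tested on simulated data. The correction for GC and length removed, within each library, a robust spline (4 degrees of freedom) of log2 CPM deviations (prior count 2), with annotation from GENCODE release 29, to which 57940 of 58278 genes matched. Shares were compared by exact permutation. Alternatives were DESeq2 1.42.0, its size factors, other filters, other sets of libraries, a block on the replicate number, and each library left out. All 10 members were described. Genes of the lists were named where called in Palbociclib or Combination tumors, up to the 4 with the largest change in each direction. The members and lists were chosen with earlier results of these data known.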

Additional observations from a re-analysis of the deposited data

Results flagged for a closer look

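In Telaglenastat tumors, CCND3 was lowest in replicate 2, at 12.8 CPM, with a gap to the next tumor of 0.851 of the group's range. CDKN1B was highest in Telaglenastat tumor 3, at 68.5 CPM, with a gap of 0.955 of the range. Of 36 sets of 4 or 5 tumor values examined in this way, these 2 had a library that stood apart, and chance alone flags about 1 group in 20.

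As counted, the effect of a treatment in tumors differed from that in the cultures for several members, on the log2 scale by edgeR. With Palbociclib the difference was 1.02 for CCND1. With Telaglenastat it was 0.40 for CCND1, -0.68 for CDK4, -1.03 for CDKN1A and 0.75 for RB1. With the Combination it was 1.36 for CCND1, 1.31 for CDK6 and -2.15 for CDKN2C. The GC dependence of the counts moved with Telaglenastat in the tumors, and its part in these values was not tested. After the correction the CDK4, CDKN1A and RB1 differences with Telaglenastat and the CDKN2C difference with the Combination were not called. As counted, the CDKN2C call was lost in 10 of 13 fits with 1 library left out, and the CDK6 call with the Combination in 3 of 13.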

How the results depend on the processing

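The number of members called depended on the setting as follows. Shares of all genes called are given above for the main fit and for the correction alone. Counts under any other setting, here and below, have no background. Palbociclib against Control tumors gave 2 in place of 4 with only the groups compared, with 1 fit of all 28 libraries and with the replicate number as a block. With the GC and length correction, alone, with the block, or without Control tumor 2 (the last chosen after seeing the data), Telaglenastat against Control gave 0 in place of 5, Combination against Control 3 in place of 6, and Combination against Palbociclib 1 in place of 5. Combination against Telaglenastat cultures gave 2 in place of 0 with no low-count filter and with 1 fit of all libraries. The Palbociclib difference between tumors and cultures gave, in place of 1, 2 with DESeq2, 3 with its size factors in edgeR, 2 with no filter, 3 with only the groups compared, 3 with the correction and 2 with the correction without Control tumor 2. The Telaglenastat difference gave 1 in place of 4 with the correction and 0 with the correction and the block or without Control tumor 2.

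Leaving out 1 library at a time gave 2 to 5 members for Palbociclib, 4 to 6 for Telaglenastat and 6 to 7 for Combination against Control tumors, 3 to 6 for Combination against Palbociclib, 5 to 6 against Telaglenastat, 0 to 1 for Combination against Telaglenastat cultures, 3 to 5 for Control cultures against tumors, and 1 to 3, 3 to 5 and 1 to 4 for the Palbociclib, Telaglenastat and Combination differences.

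Among values called before or after it, directions turned with the correction for CCND3 (0.0051) and CDKN1A (0.044) in Telaglenastat against Control, CCND3 (0.26) and CDKN1A (0.092) in Combination against Palbociclib and CDKN1A (0.36) in cultures against tumors. Values called in neither also turned, among them CCND3 (0.28) and RB1 (-0.17) in Combination against Control, CDKN2C (0.44) in Combination against Palbociclib and CCND3 (0.37) in cultures against tumors. With the correction and the replicate block the values were 0.044 for CDKN1A in Telaglenastat against Control, 0.29 for CCND3 and 0.078 for CDKN1A in Combination against Palbociclib, and 0.36 for CDKN1A in cultures against tumors. With the correction without Control tumor 2 they were 0.015 and 0.035 for CCND3 and CDKN1A in Telaglenastat against Control, and 0.26 and 0.089 in Combination against Palbociclib. CDK6 in Telaglenastat against Control ran from -0.34 to 0.53 when 1 library was left out, the latter without Control tumor 2. The cause of these changes was not tested beyond the correction itself. Of the 21 share differences, 3 changed sign with the correction (CDK4 in Telaglenastat tumors, 0.759 points, and in Palbociclib and Combination cultures, 0.0148 and 1.73), 5 of 138 values did so with a library left out, and 0 of 21 without division by length.

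The replicate numbers did not pair the samples: the correlation of deviations between same-numbered libraries was -0.128 to 0.0896 in tumors (0 of 21 over 0.1) and -0.423 to 0.140 in cultures (3 of 18). The block gave 7 members for Combination against Control and 4 for Combination against Palbociclib. With the block and the correction, Palbociclib against Control gave 3, against 6 with the correction alone, and the Palbociclib difference 1, against 3, CDKN1B and CDKN2C not being called in either. CDKN2C and CCND2 were limited by depth, with at most 63 and 9 counts in a tumor.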
